A study of Mus musculus with 8 samples.

Results

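The genes described here are 9 CC chemokines, Ccl2, Ccl3, Ccl4, Ccl5, Ccl6, Ccl7, Ccl8, Ccl9 and Ccl12, chosen by symbol among the 27998 genes counted in lumbar spinal cord microglia of mice. These cells are macrophages that live in the brain and cord from before birth. RNA of single cells was counted in 8 libraries. All animals were C57BL/6, and all carried a tamoxifen-inducible Cre with YFP at the Cx3cr1 locus (Cx3cr1-yfp-creER/+), so that control cells, too, lacked 1 intact Cx3cr1 allele. The 4 libraries labelled control had no other altered allele given, and the 4 libraries labelled A20 cKO came from animals that also had Tnfaip3 fl/fl alleles. Tnfaip3 encodes A20, an inhibitor of NF-kB signalling, and Cre acts in every Cx3cr1-expressing cell, not in microglia alone. In each genotype 1 library was naive and the others came 1, 2 and 3 days after bilateral transection of the sciatic nerve. Young adult animals were used, the cords of several were pooled for each library, and YFP-positive cells were sorted and resuspended in serum-free medium with TGF-β2, IL34 and cholesterol. The methods give tamoxifen injections before the experiments, without saying for each library which animals received them. Each group was 1 library without a replicate, no test was made between groups, and animal, preparation and group cannot be told apart. Ranges in brackets after a level, ratio or share are 95% intervals that cover counting error only, unless said otherwise.

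CC chemokines are small secreted proteins that draw leukocytes along a gradient by binding G protein-coupled CC receptors. CCL2, CCL7, CCL8 and CCL12 are the monocyte chemoattractant proteins, whose main receptor CCR2 is carried by monocytes. CCL3, CCL4 and CCL5 draw T cells and macrophages, and CCL3 and CCL5 bind CCR1, as do CCL6 and CCL9. CCL2 from neurons, astrocytes or microglia is best known in the spinal cord for its part in pain after nerve injury. Many of these genes are targets of NF-kB, the pathway that A20 restrains, and some are also induced by interferons.

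A unique molecular identifier (UMI) marks each captured RNA molecule at its 3′ end, so levels were UMI sums scaled to 1000000 UMIs (CPM), which need no division by gene length. Of 14883 barcodes, 14626 had at least 1000 UMIs, at least 500 genes and at most 10% mitochondrial UMIs. The kept cells of a library numbered from 558 to 3585, with 1620481 to 15817426 UMIs in all and a median depth between 2780 and 4274 UMIs a cell. At least 3 of 8 microglia markers were found in 98.5% to 100% of the cells of each library. Control day 3 and the 4 A20 cKO libraries stood apart. Their 10 pairs shared 256 barcodes and the other 18 pairs shared 125, at a median of 13.7 against 1.86 per 1000000 possible pairs of cells. The ranges overlapped, at 5.41 to 67.6 for the 10 pairs and 0.797 to 8.83 for the other 18. These 5 are called linked libraries, and 4 of the 11 comparisons set a linked library against one of the other 3, control naive, day 1 and day 2. Markers of some other cell types moved with that split, and their part in the results was not tested. For the endothelial, neuron and T and NK cell lists the sums overlapped between the linked and the other libraries. The endothelial list summed to 54.9 CPM in control naive, 26.3 CPM in day 1 and 17.6 CPM in day 2, and 39.5 to 62.7 CPM in the linked libraries. Of the control naive sum 51.2 CPM was Pecam1, which also overlapped. Its other genes did part. Cldn5, Flt1, Ly6c1 and Itm2a had 0 to 0.126 CPM in the other 3 and 0.561 to 7.27 CPM in the linked libraries. Kdr had 3.70 to 9.46 CPM and 11.7 to 23.2 CPM. The neutrophil list had 0 UMIs of 6 genes in the other 3 libraries, and 24.4 to 45.6 CPM from 4 to 6 of its genes in the linked ones. The monocyte list summed to 8.64 to 11.4 CPM in the other 3 and 65.2 to 236 CPM in the linked libraries, mostly Ms4a4c and Plac8. Its Ccr2 had 0.632 to 1.85 CPM in the other 3 and 0.330 to 2.36 CPM in the linked ones. Cells with at least 3 genes of a list for another cell type, called marked cells, numbered 138 in the linked and 5 in the other libraries. Tnfaip3 RNA was not lower in the libraries labelled A20 cKO, with 42.3 to 67.7 CPM there and 6.83 to 25.3 CPM in control. Whether its 3′ tags lie in the deleted part was not checked, so these levels do not test the label, and A20 cKO stands for that label throughout.

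All 9 genes lie on chromosome 11 (build GRCm38, GENCODE M21) in 2 blocks. The first block holds Ccl2 (82035571 to 82037453), Ccl7 (82045712 to 82047525), Ccl12 (82101845 to 82103400) and Ccl8 (82115185 to 82116799), all on the plus strand. The second begins 1408978 bases further on and holds Ccl5 (83525778 to 83530518), Ccl9 (83572919 to 83578636), Ccl6 (83587882 to 83593087) and Ccl3 (83647844 to 83649355) on the minus strand, and Ccl4 (83662584 to 83664683) on the plus strand. Ccl2 overlaps Gm17268 and Ccl6 overlaps E230016K23Rik, each on the opposite strand. Identical runs between transcripts of different members were short, with the longest, 25 bases, between Ccl9 and Ccl6 and the next, 23 bases, between Ccl2 and Ccl7.

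The 250 bases before the RefSeq start (GRCm38.p6) were read for the 5 members in the sequence table, Ccl12, Ccl8, Ccl9, Ccl6 and Ccl3, and searched on both strands for 5 motifs. These were the TATA box (TATAAA), an AP-1 site (TGANTCA), a PU.1 core (GAGGAAG), and, by name, an interferon response (ISRE) core and a kB site. Ccl12 and Ccl8 are shown because they are neighbours whose upstream sequences were the most alike of the 10 pairs (55.6% identity), although Ccl12 was the most abundant member over all cells and Ccl8 nearly absent. Ccl9 and Ccl3 are shown as a steady and a variable member of the second block. Capitals mark motif matches, and each sequence runs 5′ to 3′ on the strand of its gene. Ccl12 is chr11:82101595-82101844 (plus), Ccl8 chr11:82114935-82115184 (plus), Ccl9 chr11:83578637-83578886 (minus) and Ccl3 chr11:83649379-83649628 (minus).
Ccl12: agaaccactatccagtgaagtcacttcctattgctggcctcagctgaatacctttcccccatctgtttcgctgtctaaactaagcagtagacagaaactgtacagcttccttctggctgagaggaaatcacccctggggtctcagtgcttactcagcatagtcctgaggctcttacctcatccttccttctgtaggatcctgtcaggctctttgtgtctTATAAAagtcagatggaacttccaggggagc
Ccl8: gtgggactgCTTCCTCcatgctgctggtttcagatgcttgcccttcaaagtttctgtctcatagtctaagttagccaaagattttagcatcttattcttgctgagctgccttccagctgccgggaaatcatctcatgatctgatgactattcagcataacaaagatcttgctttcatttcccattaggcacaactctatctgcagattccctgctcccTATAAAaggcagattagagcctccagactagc
Ccl9: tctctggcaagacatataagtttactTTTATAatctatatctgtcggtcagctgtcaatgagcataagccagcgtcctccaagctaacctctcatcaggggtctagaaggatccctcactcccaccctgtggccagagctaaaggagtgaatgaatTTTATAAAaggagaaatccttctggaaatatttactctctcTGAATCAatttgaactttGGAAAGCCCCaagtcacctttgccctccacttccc
Ccl3: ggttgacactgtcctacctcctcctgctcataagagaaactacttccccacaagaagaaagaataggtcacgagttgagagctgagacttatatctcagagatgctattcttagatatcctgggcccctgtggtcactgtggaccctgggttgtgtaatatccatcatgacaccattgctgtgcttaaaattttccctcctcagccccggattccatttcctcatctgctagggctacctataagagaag

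The letters of a TATA box stood 31 bases before the start of Ccl12 and 32 bases before that of Ccl8, on the plus strand of the window. Ccl9 held them 92 bases before its start and, on the minus strand, 94 bases (overlapping the former) and 224 bases before it. Of the 32851 promoter windows of the table, 12.4% held them on either strand of the upstream part. Ccl9 also held the only kB match, 35 bases before the start on the minus strand, and the only AP-1 match, 53 bases before it, where the pattern reads the same on both strands, found in 7.25% and 6.75% of all windows. The PU.1 core was in Ccl8 alone of the 5 (10.6% of windows), and the interferon core in none of them (2.98% of windows). Ccl6 and Ccl3 held no match to the 5 motifs. These matches describe the letters of the window only.

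Added over the 9 genes, CC chemokine RNA was lowest in control naive, at 1260.1 CPM, and 6037 CPM in control day 1, 1867 CPM in day 2 and 2896 CPM in day 3. The A20 cKO libraries held 3701 CPM when naive and 8781, 7075 and 6892 CPM on days 1 to 3. The gene that made up most of the sum changed between libraries. Ccl9 led in control naive with 33.2% of the sum, Ccl12 led in the 3 injured control libraries (56.4% to 68.7%) and in A20 cKO day 1 (58.7%), and Ccl5 led in A20 cKO naive, day 2 and day 3 (36.4% to 39.0%).

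**Figure D1:**
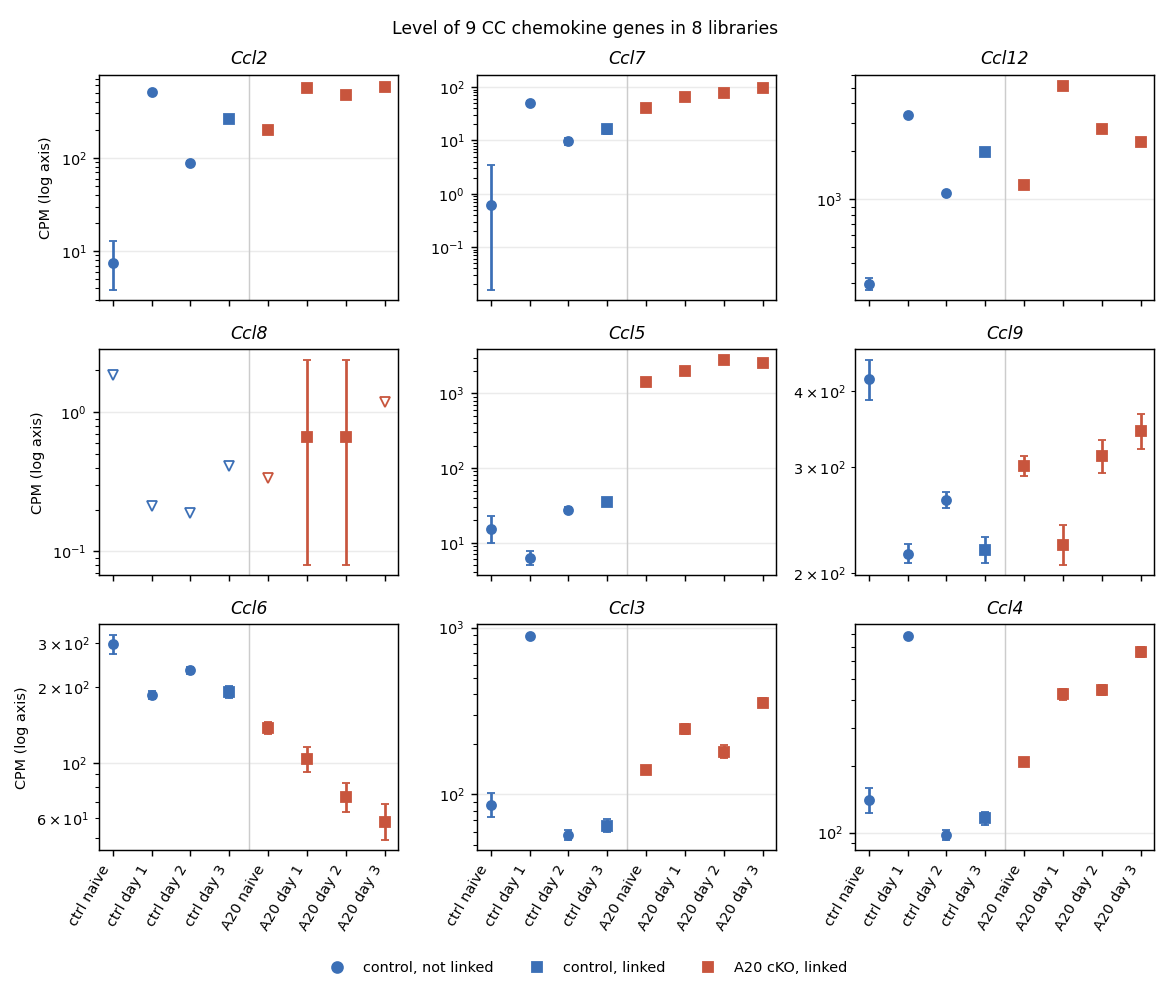
Level of each CC chemokine gene in CPM (log axis, scale differs between panels) in the 8 libraries, with 95% Poisson intervals for counting error. Circles are libraries that are not linked and squares linked ones, and open triangles mark the level of 3 UMIs where a gene had 0. Ccl5 is between 6.26 and 34.9 CPM in the 4 control libraries and between 1435 and 2756 CPM in the 4 A20 cKO libraries.

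Among the monocyte chemoattractant proteins, Ccl2 reached 7.41 CPM (3.83 to 12.9, 12 UMIs) in control naive, 502 CPM in day 1, 88.6 CPM in day 2 and 263 CPM in day 3. In A20 cKO it reached 201 CPM in the naive library and 562, 477 and 576 CPM on days 1 to 3. Control naive was the lowest of the 8, and control day 1 lay among the injured A20 cKO libraries, with the interval of A20 cKO day 2 overlapping its own. Ccl7, the neighbour of Ccl2 and a ligand of several receptors besides CCR2, stood below Ccl2 in every library. It reached 0.617 CPM (1 UMI) in control naive, then 49.9, 9.67 and 16.2 CPM in control, and 40.5 CPM in A20 cKO naive, then 66.4, 79.1 and 97.6 CPM.

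Ccl12, a mouse chemokine close to human CCL2, was found in more cells than any other member in 4 of the 8 libraries once depth was equal. Its level was 294 CPM (269 to 322) in control naive, 3406 CPM in day 1, 1088 CPM in day 2 and 1991 CPM in day 3, and 1236, 5152, 2751 and 2290.1 CPM in A20 cKO naive and days 1 to 3. No neighbours in the order of these 8 levels had overlapping intervals, and day 1 was the highest library of each genotype. Ccl8 was the exception of its block, with 4 UMIs in all 14626 cells, 2 in A20 cKO day 1 and 2 in A20 cKO day 2. The other 6 libraries had 0, which allows at most 0.190 to 1.85 CPM at 3 counts, so no difference in Ccl8 was detectable at this depth.

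In the second block, Ccl5, which draws T cells and other leukocytes, showed the widest gap between genotypes. The control libraries held 15.4, 6.26, 27.2 and 34.9 CPM (naive, days 1 to 3) and the A20 cKO libraries 1435, 2001, 2756 and 2508 CPM. Every A20 cKO library was above every control library. Of 11045 genes with at least 100 UMIs in the 8 sums, 5.11% lay wholly higher in A20 cKO in this way and 4.58% wholly lower. Ccl5 was the only one of the 8 members tested that lay wholly higher, and Ccl6 the only one wholly lower. The little Ccl5 of the control libraries sat in few cells. In control day 1 its 88 UMIs lay in 72 cells, with at most 4 in 1 cell. In control day 2 a single cell held 125 of 430 UMIs (29.1%). That cell carried UMIs of 5 T and NK cell markers beside 6 microglia markers. Without it control day 2 stood at 19.3 CPM. The T and NK cell list summed to 13.7 CPM there and to 0 to 1.85 CPM in the other 7 libraries, and Cd3e was at 0 in all 8.

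Ccl3 and Ccl4, early products of stimulated macrophages, peaked together in control day 1. Ccl3 had 87.0 CPM in control naive, 892 CPM in day 1, 57.0 CPM in day 2 and 65.2 CPM in day 3, and Ccl4 had 140.1, 779, 97.4 and 116 CPM. The A20 cKO libraries showed no such peak on day 1. Their Ccl3 levels were 139.8, 248, 181 and 356 CPM and their Ccl4 levels 209, 425, 446 and 662 CPM (naive, days 1 to 3), highest for both genes on day 3. In A20 cKO day 1, 210 of the 750 Ccl3 UMIs (28.0%) came from 1 cell of 11041 UMIs, whose barcode also occurred in another library and which held the most Ccl5 and Ccl12 UMIs of that library too. Without it Ccl3 stood at 179 CPM there.

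Ccl9 and Ccl6, CCR1 ligands that myeloid cells make without stimulation, varied least. Ccl9 lay between 216 CPM (control day 1) and 418 CPM (control naive), with 265 CPM in control day 2, 219 CPM in day 3 and 301, 223, 312 and 344 CPM in A20 cKO. Ccl6 followed another course, with 297, 186, 234 and 191 CPM in the control libraries. The A20 cKO libraries held 138, 103, 72.8 and 58.2 CPM of it. Every A20 cKO library was under every control library.

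The first set of comparisons asked how the genes differed after nerve injury in control animals. A gene was compared where the 2 libraries together held 100 or more of its UMIs, and a ratio past 2-fold was counted. Ccl8 never reached that minimum, and Ccl2 and Ccl7 (12 and 1 UMIs in control naive) reached it against control naive only through the other library. So did Ccl5, with 25 UMIs in control naive, on control days 2 and 3 and in A20 cKO naive, and it had 88 UMIs in control day 1 when set against A20 cKO day 1. On day 1, 5 of the 8 members tested were past 2-fold higher, against 3.82% of 8866 genes, and 1 was lower, against 7.25%. The log2 ratio was 6.03 for Ccl2 (5.28 to 7.04), 5.75 for Ccl7 on 1 naive UMI (3.86 to 11.64), 3.53 for Ccl12 (3.40 to 3.67), 3.35 for Ccl3 (3.12 to 3.61) and 2.47 for Ccl4 (2.28 to 2.67). The lower member was Ccl5 at −1.32 (−1.96 to −0.60), while Ccl9 (−0.96) and Ccl6 (−0.67) stayed within 2-fold. The Ccl5 result rested on few UMIs, as 1 control naive cell held 8 of the 25 there (32%). Without the cell with most Ccl5 UMIs in each library, control naive stood at 10.52 CPM and control day 1 at 5.98 CPM. These levels are less than 2-fold apart. The median member stood at 2.91 and the median gene at −0.13.

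On day 2 the chemoattractant proteins were still above control naive and Ccl3 and Ccl4 were not. Ccl2 stood at 3.52 (2.77 to 4.54), Ccl7 at 3.39 (1.47 to 9.28) and Ccl12 at 1.88 (1.75 to 2.02), which made 3 of 8 members past 2-fold higher, against 5.92% of 9279 genes, and 0 lower, against 6.28%. Ccl3 had −0.61 (−0.87 to −0.34) and Ccl4 −0.53 (−0.73 to −0.32). Control day 3 over control naive crosses the split between libraries. There 4 of 8 members were higher, against 8.76% of 8302 genes, namely Ccl2 at 5.09, Ccl7 at 4.13, Ccl12 at 2.76 and Ccl5 at 1.15 (0.58 to 1.83), and 0 were lower, against 2.32%. Ccl9 came close to the threshold at −0.94 (−1.07 to −0.80). These 3 comparisons share control naive, the library with the fewest UMIs and 568 cells.

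**Figure D2:**
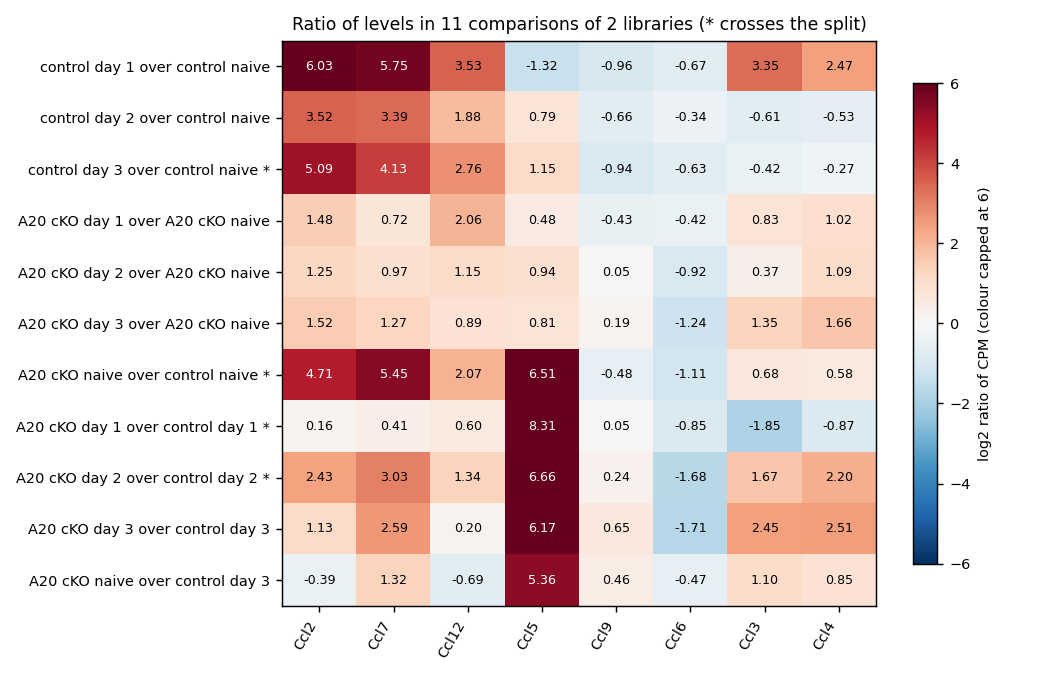
Log2 ratio of the level of 8 CC chemokines (columns, Ccl8 left out) in 11 comparisons of 2 libraries (rows), red for higher in the library named first. Asterisks mark the 4 comparisons that cross the split, and Ccl5 is at 5.36 or more in the 5 comparisons of an A20 cKO with a control library.

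In A20 cKO animals the injured libraries were set against a naive library that held 201 CPM of Ccl2, 1236 CPM of Ccl12 and 1435 CPM of Ccl5. The median member stood at 0.77, 0.95 and 1.08 on days 1 to 3, and at 2.91, 0.22 and 0.44 in control over its own naive library. On day 1, 3 of 8 members were past 2-fold higher, against 1.56% of 8919 genes, and 0 lower, against 1.39%. They were Ccl12 at 2.06, Ccl2 at 1.48 (1.39 to 1.58) and Ccl4 at 1.02 (0.92 to 1.13). On day 2 the same 3 genes passed, against 2.86% of 8921 genes, with Ccl2 at 1.25, Ccl12 at 1.15 and Ccl4 at 1.09, and 0 were lower, against 2.65%. On day 3, 4 members passed, against 1.92% of 8797 genes. These were Ccl4 at 1.66 (1.56 to 1.76), Ccl2 at 1.52 (1.42 to 1.62), Ccl3 at 1.35 (1.22 to 1.47) and Ccl7 at 1.27 (1.03 to 1.51), and Ccl6 was lower at −1.24, against 2.00% of genes. Ccl5 stayed within 2-fold on each day, at 0.48, 0.94 and 0.81. Ccl4 rested on few cells: without the cell with most of its UMIs in each library it stood at 0.93 on day 1 and 0.97 on day 2, within 2-fold. Ccl3 on day 1 moved from 0.83 to 0.41 in the same way.

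The next comparisons set A20 cKO against control at the same time. For naive animals, across the split, 4 of 8 members were higher, against 7.43% of 8641 genes, with Ccl5 at 6.51 (5.98 to 7.17), Ccl7 at 5.45 on 1 control UMI (3.55 to 11.34), Ccl2 at 4.71 (3.96 to 5.72) and Ccl12 at 2.07 (1.94 to 2.20). Ccl6 was lower at −1.11 (−1.26 to −0.95), against 2.22% of genes, but stood at −0.95 when the mean was taken over cells. On day 1, also across the split, Ccl5 alone was higher at 8.31 (8.02 to 8.64), against 15.5% of 9160 genes, and Ccl3 alone lower at −1.85 (−1.96 to −1.74), against 3.25%. Ccl2 had 0.16 (0.08 to 0.24), which became −0.038 when centred on the median gene of 0.20, and Ccl4 (−0.87) and Ccl6 (−0.85) then passed 2-fold at −1.07 and −1.05. The medians of all genes in the 11 comparisons ran from −0.13 to 0.20. On day 2, across the split, 6 of 8 were higher, against 10.7% of 9486 genes, all but Ccl9 and Ccl6, from 1.34 (Ccl12) to 6.66 (Ccl5), and Ccl6 was lower at −1.68, against 4.66%.

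Day 3 is the time at which both genotypes were linked libraries. There 5 of 8 members were past 2-fold higher in A20 cKO, against 1.86% of 8488 genes, and 1 lower, against 2.40%. Ccl5 stood at 6.17 (5.99 to 6.36), Ccl7 at 2.59 (2.27 to 2.92), Ccl4 at 2.51 (2.39 to 2.63), Ccl3 at 2.45 (2.29 to 2.61) and Ccl2 at 1.13 (1.03 to 1.23). Ccl6 was lower at −1.71 (−1.97 to −1.47), and Ccl12 differed little, at 0.20 (0.16 to 0.25). A20 cKO naive over control day 3 is also within the linked libraries, though the times differ. There 3 of 8 were higher, against 0.964% of 9541 genes, Ccl5 at 5.36, Ccl7 at 1.32 and Ccl3 at 1.10, and 0 lower, against 1.49%. Both comparisons rest on the same control library, control day 3.

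To compare cells at 1 depth, each cell was thinned to 2000 UMIs, which kept 13691 cells and left out the shallower ones, 20 to 310 per library. The share of cells with a Ccl12 UMI was 23.9% in control naive, 96.7% (96.1 to 97.3) in day 1, 74.2% in day 2 and 60.5% in day 3, and 46.7%, 83.6%, 73.3% and 70.4% in A20 cKO naive and days 1 to 3. Ccl5 was in 1.33% to 3.53% of control cells and in 48.7%, 53.1%, 81.9% and 74.5% of A20 cKO cells. Ccl3 and Ccl4 were in 61.4% and 56.0% of control day 1 cells. Elsewhere Ccl3 was in 6.18% to 23.4% and Ccl4 in 5.38% to 25.5% of cells, both highest in A20 cKO day 3. Unthinned shares ran higher, for example 99.3% for Ccl12 and 79.7% for Ccl3 in control day 1.

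**Figure D3:**
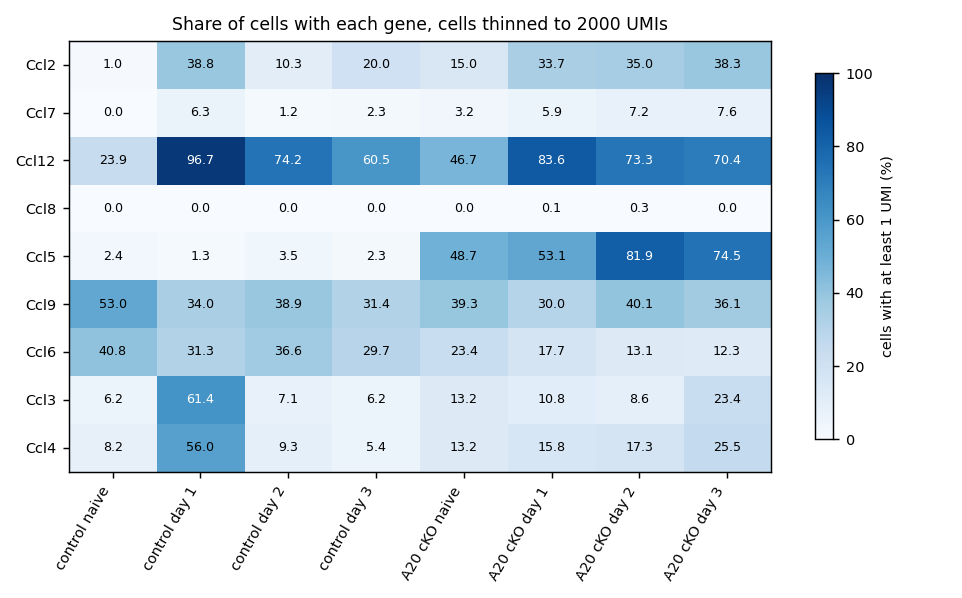
Share of cells, in percent, with at least 1 UMI of each gene (rows) in the 8 libraries (columns) after each cell was thinned to 2000 UMIs. Ccl12 is in 96.7% of control day 1 cells, and Ccl5 is at 48.7% or more in the A20 cKO libraries and at 3.53% or less in the control ones.

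Ccl2 was in 0.996% of control naive cells, 38.8% on day 1, 10.3% on day 2 and, by its interval, 18.2% to 21.9% on day 3, and in 15.0%, 33.7%, 35.0% and 38.3% of the A20 cKO cells. Ccl7 reached at most 7.62% (A20 cKO day 3) and was in 0 of 502 control naive cells, which allows up to 0.598%. Ccl9 was in 30.0% to 53.0% of cells of every library. Ccl6 was in 29.7% to 40.8% of control and 12.3% to 23.4% of A20 cKO cells. As a measure of free RNA, 17 marked cells of the linked libraries with fewer than 2 microglia markers held 0 UMIs of each member but Ccl5, which was in 3 of them (17.6%, interval 3.80 to 43.4). Their median depth was 1297 UMIs, below that of the kept cells of any library, and 0 of 17 has an upper bound of 19.5%. These cells came from control day 3 (8) and the A20 cKO libraries (9), so they give no background for control naive, day 1 and day 2.

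The genes differed in how evenly cells shared them. For Ccl9 and Ccl6 the variance of thinned counts over their mean was 1.08 to 2.07 in all libraries, where random sampling gives 1. For Ccl12 it was 4.19 to 19.1, for Ccl3 3.60 to 16.2 and for Ccl4 6.66 to 22.5, and for Ccl5 14.3 to 19.2 in the A20 cKO libraries. The 5% of cells with most Ccl4 held 98.3% of its UMIs in control day 3 and 40.0% in control day 1, where the gene was also in most cells. Cells with at least 10 Ccl3 and Ccl4 UMIs together were 7.41% of control day 1, 5.02% of A20 cKO day 3 and 0.345% to 2.41% of the other libraries. They held 37.1% to 70.5% of all Ccl3 and Ccl4 UMIs.

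Single cells often held RNA of several members. The median cell held 3 members in control day 1 and in A20 cKO days 2 and 3, 2 in control day 2 and A20 cKO naive and day 1, and 1 in control naive and day 3. Cells with 4 or more were 41.6% of control day 1, 20.2% to 29.2% of the injured A20 cKO libraries, 12.8% of A20 cKO naive and 1.39% to 5.06% of the other control libraries. The richest cell, in A20 cKO day 1, gave 212 of its 2000 UMIs (10.6%) to these genes.

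Whether members shared cells was described by the number of cells with both genes over the number expected if the shares were independent within each library. Ccl3 and Ccl4 came out at 2.63 (2.33 to 2.95) in the linked libraries, where 282 cells held both and 107 were expected, and at 1.09 (1.03 to 1.15) in the other 3. The low value is mostly that of control day 1, at 1.07, where both genes were in most cells. It was 4.34 (2.17 to 7.77) in control naive and 1.62 (1.14 to 2.23) in control day 2. Ccl2 and Ccl7 came out at 2.23 (1.89 to 2.61) in the linked and 1.37 (1.13 to 1.65) in the other libraries, and 53.1% of all cells with Ccl7 also held Ccl2.

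Pairs across the 2 blocks were also found together in the linked libraries. Ccl7 and Ccl4 stood at 1.99 (1.57 to 2.48), Ccl7 and Ccl3 at 1.73 (1.31 to 2.24), Ccl2 and Ccl4 at 1.66 (1.49 to 1.84) and Ccl2 and Ccl3 at 1.63 (1.45 to 1.84). Over the other 3 libraries together these 4 pairs lay between 1.00 and 1.06, values carried by control day 1. Apart from it, Ccl2 and Ccl3 stood at 9.72 (2.00 to 28.4, 3 cells) in control naive and 1.43 (1.00 to 1.97) in control day 2, and Ccl2 and Ccl4 at 7.35 (1.51 to 21.5, 3 cells) and 1.35 (0.99 to 1.81). Ccl6 shared fewer cells than expected with Ccl7 (0.695, 0.49 to 0.96) and Ccl2 (0.805, 0.71 to 0.91) in the linked libraries, though the pair with Ccl2 stood at 0.981 without thinning, and its pair with Ccl9 was at 1.05 (0.96 to 1.14).

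**Figure D4:**
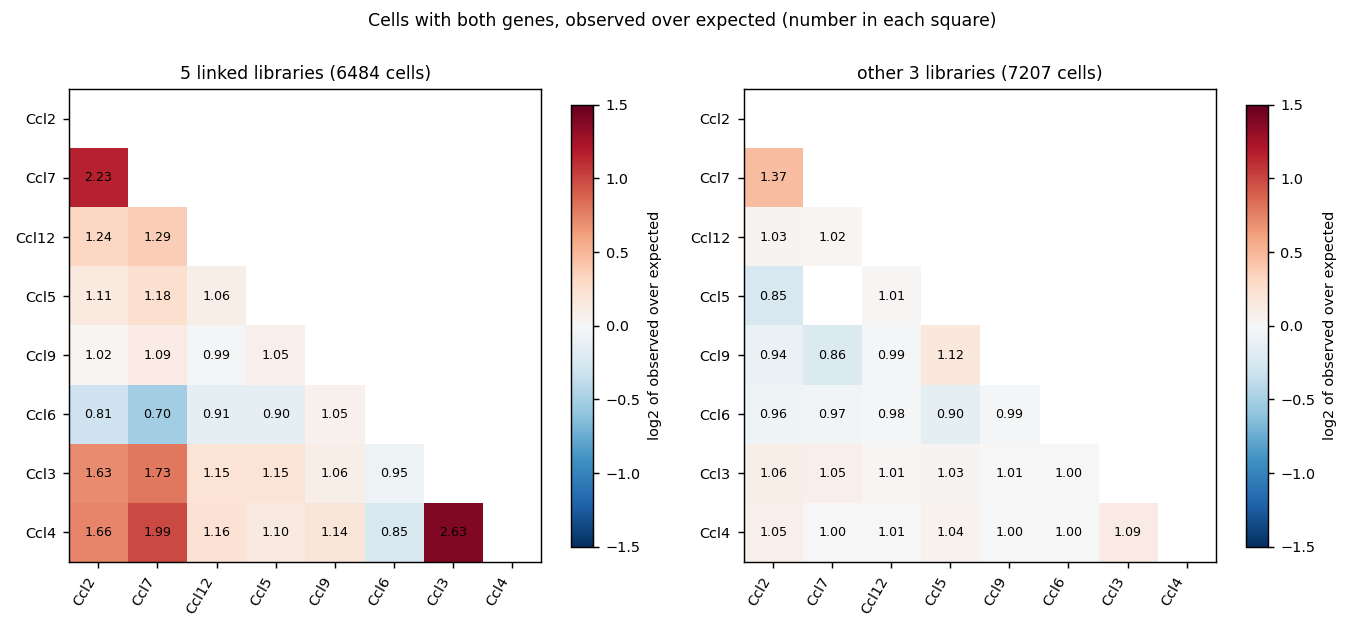
Cells with both genes over the number expected from their shares within libraries, for pairs of 8 CC chemokines in cells thinned to 2000 UMIs, in the 5 linked libraries (left) and the other 3 (right). Numbers are the ratios, colour is their log2, and pairs with fewer than 10 expected cells are blank. The highest ratio is that of Ccl3 and Ccl4, 2.63, in the linked libraries.

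Correlations of log2(1 + thinned UMIs) across cells were also taken. They are descriptions over cells that share a library, with no test, and brackets here give the lowest and highest library. The median over 8 libraries was 0.59 for Ccl3 and Ccl4 (0.36 to 0.71). It was 0.34 for Ccl2 and Ccl12 (7 libraries, 0.16 to 0.45), 0.31 for Ccl2 and Ccl4 (7 libraries, 0.11 to 0.36) and 0.25 for Ccl2 and Ccl7 (6 libraries, 0.15 to 0.30). Ccl6 had a median of −0.08 with Ccl12. The 13 pairs within a block had a median of 0.08 and the 15 pairs across blocks one of 0.03, with highest values of 0.59 and 0.31.

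The genes outside the family with the most similar counts across cells were named by the highest median correlation over libraries. For Ccl12 they were Ifit3 (0.27 over 8 libraries), Isg15 (0.20) and Phf11b (0.19), and for Ccl2 Ifit3 (0.26 over 7), Isg15 (0.23) and Ifitm3 (0.22). For Ccl3 they were Cd83 (0.19 over 8), Tnf (0.16) and Tlr2 (0.15), and for Ccl4 Ifit3 (0.19), Cd83 (0.19) and Cxcl16 (0.17). The highest medians for Ccl5 (Bcl2a1d, H2-K1 and Sat1), Ccl7 (Ifit3, Isg15 and Ms4a6c), Ccl9 (Cst3, Bcl2a1d and Slc1a3) and Ccl6 (Cst3, Plxdc2 and Fcgr3) were at most 0.15. Correlations this low in sparse counts are descriptions only, for Ccl3 and Ccl4 too.

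Cells with UMIs of at least 3 genes of a list were then set against the other cells of the same library. The interferon-stimulated list (12 genes such as Ifit1, Isg15 and Irf7) marked 1.64% to 4.78% of cells in control naive, day 1 and day 2 and 38.3% to 84.4% in the linked libraries. It also summed to 219 to 487 CPM in the former and 2617 to 5077 CPM in the latter. Many cells lay near the threshold, as in A20 cKO naive, where 278 cells had just 3 genes.

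Ccl12 was higher in the cells with interferon-stimulated genes in all 8 libraries. In control naive it reached 2229 CPM in 24 such cells and 165 CPM in the other 478, a log2 ratio of 3.76 (3.39 to 4.12), in control day 3 3245 and 521 CPM (2.64), and in A20 cKO day 1 5636 and 4021 CPM (0.49, 0.42 to 0.55). Ccl2 was higher in the 7 libraries with at least 20 of its UMIs, by 0.57 to 2.66. Ccl5 was higher in 5 of 7 libraries, with 2502 and 655 CPM in A20 cKO naive (1.93, 1.86 to 2.01), and not in A20 cKO day 2 (−0.03, −0.15 to 0.09). The cells compared had fewer than 3 of the list's genes, and 402 of the 1612 in A20 cKO naive had 2.

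Ccl4 was higher in 7 of 8 libraries, by up to 2.99 in A20 cKO day 2, but lower in A20 cKO day 3, at −0.51 (−0.77 to −0.23). Ccl3 was higher in 5 and lower in 1, A20 cKO day 3 (−0.82). Ccl6 was never higher, and lower in 3 of 8 libraries, with a median of −0.36. Ccl9 had a median of 0.09, with intervals that held 0 in 6 of 8 libraries.

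The immediate-early list (12 genes such as Fos, Jun and Egr1) and the NF-kB list (14 genes such as Nfkbia, Icam1 and Relb) were set against the members in the same way. Nearly all control day 1 cells, 3224 of 3225, held at least 3 immediate-early genes, so no contrast was made there. In the other 7 libraries Ccl4 was higher in the cells with these genes each time, by 0.77 to 2.58, and Ccl3 each time, by 1.01 to 2.57. In A20 cKO day 1, for example, Ccl4 stood at 1174 CPM in 152 cells with the list's genes and at 197 CPM in the other 678. For NF-kB genes both were higher in all 8 libraries, Ccl4 by 0.69 to 3.34 and Ccl3 by 0.45 to 3.58, each lowest in control day 1 and highest in A20 cKO day 2. Ccl7 was higher in 5 of 7 libraries for the NF-kB list, with a median of 1.35 beside 1.25 for Ccl3 and 1.96 for Ccl4. Ccl2 was higher in all 6 libraries compared for the immediate-early list (0.51 to 0.96). Ccl6 differed in 0 of 8 for the NF-kB list.

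**Figure D5:**
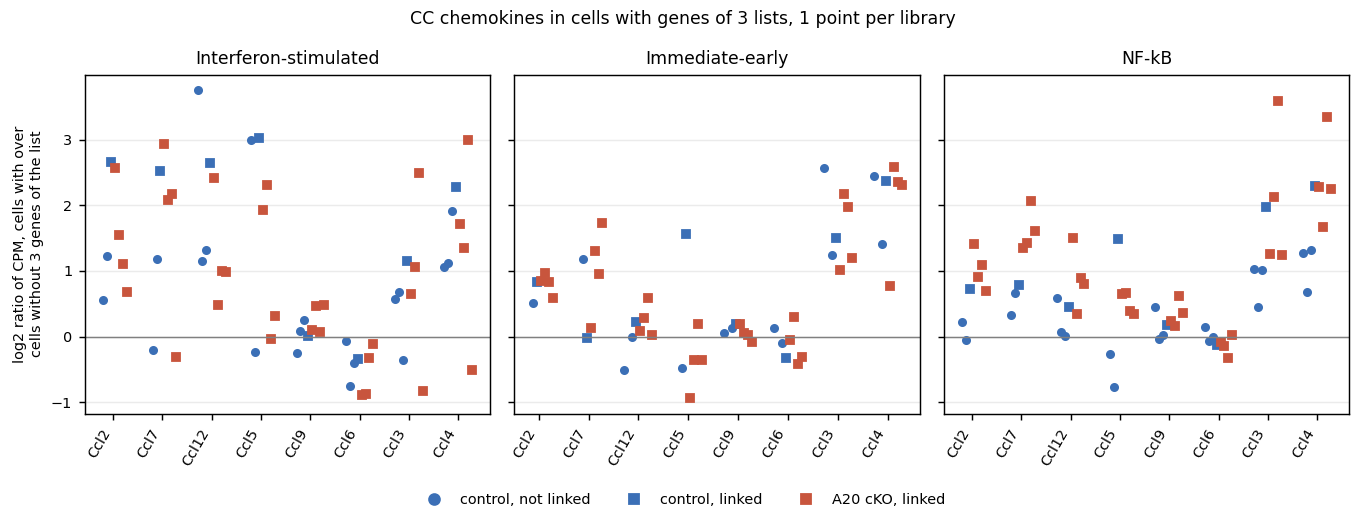
Log2 ratio of CPM between cells with and without UMIs of at least 3 genes of a list, for 8 CC chemokines and 3 lists, with 1 point per library that had at least 20 UMIs of the gene and 20 cells on each side. Circles are libraries that are not linked, squares linked ones, blue control and red A20 cKO. Ccl4 lies between 0.77 and 2.58 for the immediate-early list, while Ccl9 and Ccl6 stay between −0.89 and 0.61 for all 3 lists.

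Cells with UMIs of at least 3 of 18 G2/M genes such as Top2a and Cdk1, held less Ccl4 in 5 of 6 libraries (median −0.84) and less Ccl3 in 3 of 6 (median −0.61). Ccl2 was higher in them in 4 of 6 libraries (median 0.59) and Ccl12 higher in 4 and lower in 1.

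The sums of the lists over whole libraries moved with some of the members. The immediate-early list summed to 21305 CPM in control day 1, where Ccl3 and Ccl4 were highest, and to 998 to 5159 CPM in the other 7, where A20 cKO day 1 had 1126 CPM. The interferon-stimulated list was higher past 2-fold for 12 of 12 genes in control day 3 over control naive, as Ccl12 and Ccl2 were, but for 0 of 8 in control day 1 over control naive, where 4 were lower and both were highest among the control libraries. The NF-kB list summed to 970 to 1678 CPM in control and 1546 to 1941 CPM in A20 cKO. In A20 cKO day 3 over control day 3, 6 of its 12 tested genes were past 2-fold higher and 0 lower, with a median of 1.01. The part of these programs in the chemokine levels was not tested.

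Of the receptor genes, Ccr1, the receptor of CCL3, CCL5, CCL6 and CCL9, had 12.3 to 36.4 CPM, and Ccrl2, an atypical receptor that does not signal for migration, 10.9 to 57.5 CPM. Ccr2, the receptor of the chemoattractant proteins, had 0.330 to 2.36 CPM, so the ligand genes Ccl2 and Ccl12 were abundant in cells that held almost no RNA of their main receptor. Neither Ccr1 nor Ccrl2 was past 2-fold in control day 1 over naive. The same held in A20 cKO day 3 over control day 3, at −0.23 for Ccr1 and, close to the threshold, 0.99 (0.67 to 1.30) for Ccrl2. Both were lower in control day 2 over naive, at −1.12 and −1.51. Between genotypes Ccr1 was lower in A20 cKO day 1, at −1.05 (−1.49 to −0.65), and Ccrl2 higher in A20 cKO day 2, at 1.43 (1.04 to 1.80), both across the split. Of 11 other CC ligands Ccl25 alone reached the minimum, with 14.2 to 42.3 CPM. Ccl19, Ccl21a and Ccl27a are each listed 2 or 3 times and are uncertain.

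The 143 kept cells marked for another type held between 0.505% (Ccl6) and 2.99% (Ccl5) of the UMIs of each member other than Ccl8. In the 138 marked cells of the linked libraries Ccl12 stood at 1690 CPM and Ccl5 at 1727 CPM. Without all marked cells the count of members past 2-fold was the same in each of the 11 comparisons and both directions, and 91 of 92 log2 ratios stayed within their counting interval. The exception was Ccl5 in A20 cKO day 2 over control day 2, at 7.17 in place of 6.66.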

How the data were processed

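Spinal cord microglia of 8 groups were profiled with 10x 3′ single-cell kits, given as v3.1 in the labels and v3 in the methods. The authors deposited counts, whole-number UMIs per gene and cell barcode, for each library. The submitters' processing notes name Cell Ranger 2.1.1 and mm10, with settings not given in those sources. Doublets were gated out at the sort per the methods, a step before cells entered droplets. No doublet caller was run, so cells that shared a droplet were not looked for. Filters on kept cells were at least 1000 UMIs, at least 500 genes and at most 10% mitochondrial UMIs. UMIs were summed per library, with exact Poisson intervals for CPM, exact conditional intervals for ratios (0.5 UMIs added) and exact binomial (Clopper-Pearson) intervals for shares, all at 95%. Ratios were taken where both sums held at least 100 UMIs together. With 1 library per group no test was made. Shares and pairs used cells thinned to 2000 UMIs. Named genes were all members, listed receptors and ligands, and the 3 most similar genes of each member. Results for 1 listed gene are not reported here. Gene names and positions came from GENCODE M21, which matched 27722 of 27998 gene IDs. Alternatives were other cell filters, thinning depths, thresholds, centring, means over cells and leaving out shared or marked cells. Leaving out the cell with most UMIs was added after seeing the data. The members and lists were chosen with earlier results of these data known. Calculations used Python 3.11.15, numpy 2.4.6, scipy 1.17.1, pandas 2.3.3 and Biopython 1.88, and were tested on simulated data.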

Additional observations from a re-analysis of the deposited data

Results flagged for a closer look

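For 4 members the injured library lay below the naive one in control and above it in A20 cKO, with both counting intervals clear of 0. There was 1 library on each side, and the difference was not tested. All control values share control naive and all A20 cKO values share A20 cKO naive. On day 1 this held for Ccl5, with log2 ratios of −1.32 and 0.48, a difference of 1.80. On day 2 it held for Ccl4, at −0.53 and 1.09 (difference 1.62), and Ccl3, at −0.61 and 0.37 (difference 0.99). On day 3 it held for Ccl4, at −0.27 and 1.66 (difference 1.93), Ccl3, at −0.42 and 1.35 (difference 1.77), and Ccl9, at −0.94 and 0.19 (difference 1.13). In control naive 1 cell held 8 of the 25 Ccl5 UMIs (32%). Without the cell with most Ccl5 UMIs in each library, control naive stood at 10.52 CPM and control day 1 at 5.98 CPM. Ccl5 was then still lower on day 1 in control, but by less than 2-fold, and its A20 cKO value was 0.38. For Ccl4, 1 cell of control naive held 54 of the 227 UMIs (23.8%). Without the cell with most Ccl4 UMIs in each library, the control value of Ccl4 was −0.27 on day 2 and −0.03 on day 3. For Ccl3, 1 cell of control naive held 32 of the 141 UMIs (22.7%). Without the cell with most Ccl3 UMIs in each library, control naive stood at 67.4 CPM. Control day 2 was then at 53.1 CPM and control day 3 at 59.6 CPM, nearer to control naive than with all cells. In the same way the A20 cKO value of Ccl3 on day 2 was 0.17. The control values of day 3 cross the split between libraries, and its part in them was not tested.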

How the results depend on the processing

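No paired analysis was possible because each group had 1 library, so the groups compared shared fewer than 2 replicate numbers. A fit of genotype over the 4 matched times was not made. All 22 counts of members past 2-fold were equal with no cell filter and without marked cells. With a stricter filter or without shared barcodes 21 were equal, and 2 in place of 3 were higher in A20 cKO day 1 over naive. At 1.5-fold, 3 members were lower in control day 1, 2 in control day 2 and 2 in control day 3 over control naive. At that threshold 5 were higher in A20 cKO day 1 and 5 higher with 1 lower in day 2 over A20 cKO naive, 2 were higher and 3 lower in A20 cKO day 1 over control day 1, and 1 was lower in A20 cKO naive over control day 3. The members that joined the higher side elsewhere were Ccl5 in control day 2 over naive (0.79), and Ccl12 (0.89) and Ccl5 (0.81) in A20 cKO day 3 over naive. Further ones were Ccl3 in A20 cKO naive over control naive (0.68), Ccl9 in A20 cKO day 3 over control day 3 (0.65) and Ccl4 in A20 cKO naive over control day 3 (0.85). With no minimum of UMIs, 2 were lower in control day 1, 1 in day 2, 1 in day 3 and 2 in A20 cKO naive over control naive, and 2 higher in A20 cKO day 1 over control day 1. The member that joined in each of these was Ccl8. Against control naive it had 0 UMIs in both libraries. Its ratio there came only from the amount added to each count and the unequal library sums, and shows no fall in Ccl8. In A20 cKO day 1 over control day 1 it had 2 and 0 UMIs. Centred on the median gene, 1 was lower in control day 3 over naive, 5 higher in A20 cKO day 2 over naive and 3 lower in A20 cKO day 1 over control day 1, where Ccl2 turned to −0.038. Ccl4 in A20 cKO day 1 over naive stood at 0.98 when centred, so 2 in place of 3 were higher there. As means over cells, 5 were higher in A20 cKO day 2 over naive, 0 lower in A20 cKO naive over control naive and 2 lower in A20 cKO day 1 over control day 1. These shifts follow from each setting's own threshold or scale where it changed these, and otherwise the cause was not tested. Without thinning, the pairs of Ccl6 with Ccl2 and Ccl12 over all libraries turned from below 1 to 1.02 and 1.00. Of 92 log2 ratios, 74 stayed within their interval without the cell with most UMIs, 87 without shared barcodes and 65 as means over cells. Without shared barcodes Ccl4 in A20 cKO day 1 over naive stood at 0.92. Shares depend on depth, and 60 of 72 moved without thinning. Control naive, with 568 cells, limits every ratio of Ccl2, Ccl7 and Ccl5 against it.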

Other observations

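Other single cells also held much of a member's RNA. In control naive 1 cell of 4718 UMIs held 114 of the 477 Ccl12 UMIs (23.9%), and without the cell richest in the gene in each library the log2 ratio of Ccl12 in control day 1 over control naive was 3.92 in place of 3.53. In A20 cKO day 1 the cells richest in Ccl2, Ccl7, Ccl12, Ccl5 and Ccl3 all had barcodes that occurred in another library as well. For Ccl12, Ccl5 and Ccl3 it was the same cell, of 11041 UMIs. Without shared barcodes A20 cKO day 1 over naive stood at 0.27 for Ccl5 in place of 0.48. Ccl3 stood at 0.37 in place of 0.83, and Ccl12 at 2.02 in place of 2.06. The G2/M list summed to 27.4 to 34.6 CPM in control naive and day 1 and to 293 to 1283 CPM in the other 6 libraries.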
